A study of Mus musculus with 23 samples.

Results

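The genes Ung, Apex1, Apex2, Msh6, Pms2 and Polh encode enzymes of base excision, mismatch repair and error-prone synthesis that act on the uracils left in antibody genes. They were chosen by name as a set of 6, out of 18217 genes that had a named probe on the array and 13765 genes that were tested. All 6 were tested, and each was well above background in all 22 samples. The samples were 9 B cell lymphoma lines from Atm knockout mice, 6 spleens without tumour from mice of that same genotype, and 7 spleens of animals with wild-type Atm. The Atm kinase responds to breaks in both strands of DNA. Every mouse in all 3 groups also lacked Cd3e, without which the T cell receptor is not assembled, and the strain label is C57BL/6 x 129 throughout. The lines derive from tumour-bearing spleens and grew in suspension culture, so they are cultured cells, whereas the spleens are whole tissue. The 6 knockout spleens came from females, the wild-type spleens from 4 males and 3 females, and the sex of the lines and the age of the mice are not given in the sources used here.

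In activated B cells cytosines of the immunoglobulin genes are deaminated to uracil. Ung removes that uracil and Apex1 or Apex2 then cuts the strand at the abasic site, while a dimer that contains Msh6 recognises the uracil as a mismatch and, with a dimer that contains Pms2 and the nuclease Exo1, opens a longer gap. In ordinary repair the gap is filled accurately, but in these loci DNA polymerase eta, encoded by Polh, fills it with errors at A and T bases, and these steps together give somatic hypermutation and class switching.

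Promoter windows of 300 bases, from 250 bases before to 50 after the start site, were taken from RefSeq (GRCm38.p6) for 5 of the 6 genes, all but Apex2. Those of Ung, Msh6 and Apex1 are shown, the 3 genes with the largest differences between lines and knockout spleens when arrays are scaled to their 75th percentile. With quantile normalization Polh had the largest, at 1.59, ahead of Ung (1.34), Msh6 (1.15) and Apex1 (0.87). The windows are chr5:114130185-114130484 (+ strand) for Ung, chr17:87974800-87975099 (+ strand) for Msh6 and chr14:50924699-50924998 (+ strand) for Apex1. Capitals mark matches on either strand to 4 kinds of motif. E2F-type sites were TTTGGCGC, TTTGGCGG, TTTCCCGC or TTTCGCGC. The GC box was searched as GGGCGG. The CCAAT box was searched by the letters of its name. The E-box was searched as CACGTG.
Ung: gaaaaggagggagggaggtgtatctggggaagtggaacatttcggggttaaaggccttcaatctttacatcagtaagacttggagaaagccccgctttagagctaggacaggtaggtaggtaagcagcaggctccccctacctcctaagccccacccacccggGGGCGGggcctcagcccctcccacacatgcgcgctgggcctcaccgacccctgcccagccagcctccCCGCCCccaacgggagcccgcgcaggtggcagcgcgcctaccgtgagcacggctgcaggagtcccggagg
Msh6: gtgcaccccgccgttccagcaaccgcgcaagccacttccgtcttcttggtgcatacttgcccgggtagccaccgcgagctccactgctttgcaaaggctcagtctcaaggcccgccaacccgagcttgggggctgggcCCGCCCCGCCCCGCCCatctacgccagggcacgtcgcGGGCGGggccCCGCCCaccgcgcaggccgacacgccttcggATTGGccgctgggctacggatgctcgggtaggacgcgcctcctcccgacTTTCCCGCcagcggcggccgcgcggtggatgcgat
Apex1: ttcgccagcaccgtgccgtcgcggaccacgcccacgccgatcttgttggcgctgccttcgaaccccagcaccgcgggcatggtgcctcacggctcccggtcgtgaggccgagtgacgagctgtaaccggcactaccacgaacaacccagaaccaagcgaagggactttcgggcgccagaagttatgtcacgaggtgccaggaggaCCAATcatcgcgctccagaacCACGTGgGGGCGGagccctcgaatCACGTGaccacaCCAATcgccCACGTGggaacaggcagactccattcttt
The Msh6 window held 1 E2F-type match, 15 bases after the start, which 2.37% of all 32851 promoter windows hold. It also held 5 GC boxes, some of which overlap, and 1 CCAAT box. The Apex1 window held 3 E-boxes, the first 24 bases before and the last 21 after the start, and 7.15% of all windows hold at least 1. Apex1 also had 2 CCAAT boxes, of which the Pms2 window (chr5:143909751-143910050, + strand) had 3 and those of Ung and Polh (chr17:46202592-46202891, - strand) had 0. Every one of the 5 windows held a GC box, as did 35.7% of all windows, and 37.4% of all windows held a CCAAT box. These are matches of letters, and no binding was measured. The 5 windows held 58.3% to 72.0% G and C, against a median of 52.7% over all windows. The shares over all windows are not adjusted for that base content.

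RNA was hybridised to 23 one-colour arrays on 6 slides, and the 2 arrays of line 8 were averaged. Levels are log2 values relative to the 75th percentile of the array, and each probe has its own response, so levels are compared between samples and not between genes. Between 54.9% and 67.7% of spots were well above background. The targeted gene Atm averaged -3.34 ± 0.54 (SD, n = 9) over the lines and -2.39 ± 0.22 (SD, n = 6) for spleens labelled knockout, against -0.19 ± 0.23 (SD, n = 7) for the wild type. The sources used here do not say which part of Atm was deleted, so its probe does not check the allele. The mean log2 level of 10 B cell markers lay between 2.92 and 3.79 in every line and between 3.14 and 3.69 in every spleen. In the lines the lists of macrophage, neutrophil and NK cell markers had means of at most -3.27, -5.14 and -5.45. Each was at least 1.26 in every spleen. Erythroid, dendritic and stromal lists had means of at most -3.79, -4.08 and -5.32 in the lines, against at least 0.57, -1.8 and -3.21 in spleens. The T cell list was at most -2.32 in the lines and at least -1.21 in spleens, but 2 of its 8 markers rose in the lines. Of 9 macrophage markers, 5 to 9 were well above background in a line. In whole spleens fewer cells of a type and less RNA per cell cannot be told apart.

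Lines and knockout spleens carry the same Atm label, and their comparison asks how the tumour cells differ from tissue without tumour. Of the 6 genes, 5 rose in the lines and 0 fell, by 1.91-fold to 3.02-fold, and in each of the 5 every line was above every knockout spleen. Apex2 was the exception, at the same mean level in lines and knockout spleens. Among all tested genes 70.4% passed the limma test at an adjusted p under 0.05, 41.5% higher and 28.9% lower, and 24% were higher in every line than in every knockout spleen. The scaling sets this split: 5716 genes rose and 3975 fell, against 8704 and 2510 with each array centred on its median, where the median over all genes was 0.834 and not 0.178. The members' differences lay between the 80.1 and the 91.5 percentile of all genes for the 5 that rose, and Apex2 at the 42.5 percentile. Against wild-type spleens the same 5 genes rose and 0 fell, while 71.2% of all genes passed (40.3% higher and 30.9% lower), and 4 of the 5 were higher in every line than in every wild-type spleen, as were 23.8% of all genes (18% were lower in every line). The split there was 5543 higher and 4256 lower, and 8557 and 2639 with median centring.

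**Figure D1:**
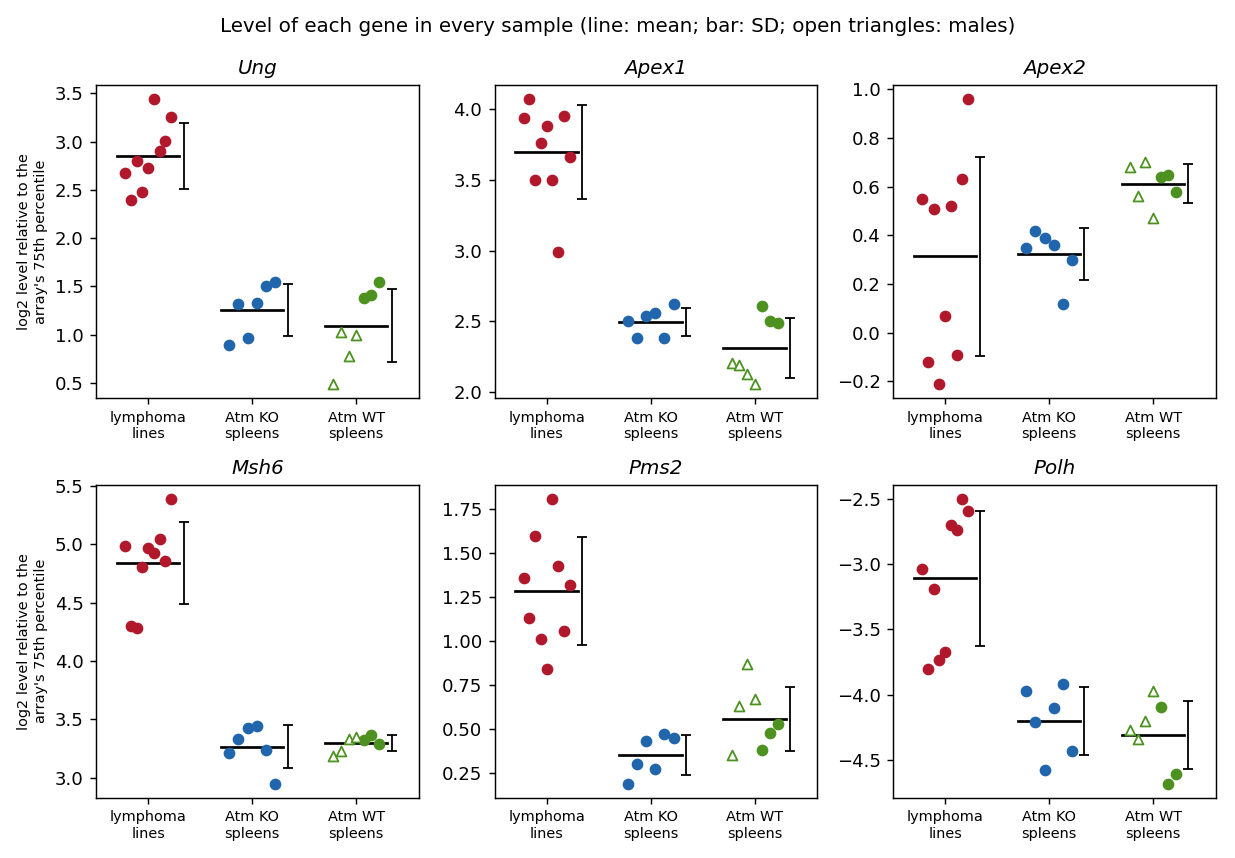
Log2 level of each gene, relative to the 75th percentile of the array, in every sample, with the mean (line) and SD (bar) of each group; each panel has its own axis, filled points are females or lines of unknown sex and open triangles are males. The lines stand above all spleens for Ung, Apex1, Msh6 and Polh, while the lines span -0.21 to 0.96 for Apex2, around both groups of spleens.

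Ung encodes the uracil-DNA glycosylase that starts base excision at a deaminated cytosine. Its log2 level was 2.39 at the lowest, 2.80 at the median and 3.44 at the highest of the 9 lines. It was 0.89, 1.33 and 1.54 in the 6 knockout spleens and 0.49, 1.03 and 1.54 in the 7 wild-type spleens. The lowest line was thus above the highest spleen of either genotype, and both sets of spleens overlapped. The difference from knockout spleens was 1.59 ± 0.18 (SE, limma adjusted p = 5.62e-08), or 3.02-fold, and from wild-type spleens 1.76 ± 0.17 (SE, limma adjusted p = 4.93e-09), or 3.40-fold. That fit had no sex term, and wild-type spleens read 0.49 to 1.03 in males and 1.38 to 1.54 in females. Line 6 was the highest and line 2 the lowest. On the 5 slides that held both kinds of sample, the lines exceeded knockout spleens by 1.06 to 1.95 and wild-type spleens by 1.19 to 2.44. Few samples of each group shared a slide, so within-slide ranges, here and for the other genes, compare few arrays.

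Apex1 encodes the main abasic-site endonuclease, which cuts the backbone after the glycosylase has acted. It was 2.99, 3.76 and 4.07 at the lowest, median and highest line, against 2.38, 2.52 and 2.62 in knockout spleens and 2.06, 2.21 and 2.61 in wild-type spleens. No line fell within the range of the spleens, although line 7, at 2.99, lay well below the next lines, at 3.50. The rise was 1.20 ± 0.14 (SE, limma adjusted p = 7.55e-08) over knockout and 1.38 ± 0.13 (SE, limma adjusted p = 3.59e-09) over wild-type spleens, or 2.30-fold and 2.61-fold. Within slides it was 0.95 to 1.61 and 1.19 to 1.88. As for Ung, the fit had no sex term, and wild-type spleens read 2.06 to 2.21 in males and 2.49 to 2.61 in females.

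Apex2 encodes the second enzyme of the family, with weaker endonuclease activity at abasic sites and a strong 3'-end processing activity. Its brighter probe read -0.21, 0.51 and 0.96 at the lowest, median and highest line, 0.12, 0.36 and 0.42 in knockout spleens and 0.47, 0.64 and 0.70 in wild-type spleens. The lines spread over a 2.23-fold range that covered both groups of spleens, with lines 2, 4, 5 and 7 low and line 9 high. Lines and knockout spleens differed by -0.01 ± 0.15 (SE, limma adjusted p = 0.954), with a 95% interval from -0.31 to 0.29, and the lines were below wild-type spleens by -0.30 ± 0.14 (SE, limma adjusted p = 0.0612; interval -0.59 to -0.01). The sign within slides was mixed, positive on 3 of 5 slides against knockout and on 1 of 5 against wild-type spleens.

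The probes of Apex2 disagreed. The dimmer probe, A_52_P417148, averaged -4.80 ± 0.19 (SD, n = 9) in lines, -5.29 ± 0.24 (SD, n = 6) in knockout and -5.07 ± 0.15 (SD, n = 7) in wild-type spleens, above background in all of them. The signal of that probe was low, which limits its fold, and an average of log2 values gives both probes equal weight. By that probe the lines were higher, by 0.49 ± 0.11 (SE, limma adjusted p = 5.51e-04) against knockout and 0.27 ± 0.11 (SE, limma adjusted p = 0.0306) against wild-type spleens. With both probes averaged the difference was 0.24 (limma adjusted p = 0.0343) against knockout and -0.02 (limma adjusted p = 0.892) against wild-type spleens. Median centring gave 0.65 (limma adjusted p = 0.00432) and 0.35 (limma adjusted p = 0.09). Against wild-type spleens the lower level passed the test with quantile normalization, at -0.40 (limma adjusted p = 0.00914), and without lines 7, 8 and 9, at -0.39 (limma adjusted p = 0.00715). So the direction for Apex2 depends on the probe and on the scaling, over a range of -0.10 to 0.65 against knockout and -0.40 to 0.35 against wild-type spleens.

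Msh6 encodes a subunit of the dimer that recognises base mismatches such as U:G. Its level was 4.28, 4.93 and 5.39 at the lowest, median and highest line, 2.95, 3.28 and 3.44 in knockout spleens and 3.19, 3.32 and 3.37 in wild-type spleens. The groups of spleens were nearly level, and the lowest lines, 2 and 3, were still above all of them. The 7 wild-type spleens had an SD of 0.067, smaller than that of all but 1.29% of tested genes. The lines exceeded knockout spleens by 1.58 ± 0.13 (SE, limma adjusted p = 1.01e-09), or 2.98-fold, and wild-type spleens by 1.54 ± 0.13 (SE, limma adjusted p = 5.60e-10), or 2.92-fold. Within slides the excess was 0.84 to 1.93 and 0.97 to 1.74.

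Pms2 encodes the endonuclease subunit that nicks the strand after mismatch recognition. Its level was 0.84, 1.32 and 1.81 at the lowest, median and highest line, 0.19, 0.36 and 0.47 in knockout spleens and 0.35, 0.53 and 0.87 in wild-type spleens. Only line 5 lay within the range of the spleens, just below 1 male wild-type spleen. The rise of 0.93 ± 0.13 (SE, limma adjusted p = 1.03e-06) over knockout and 0.72 ± 0.12 (SE, limma adjusted p = 1.44e-05) over wild-type spleens was 1.91-fold and 1.65-fold. It was 0.47 to 1.34 and 0.44 to 1.14 within slides.

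Polh encodes DNA polymerase eta, the translesion polymerase that makes most mutations at A and T bases in antibody genes. Its level was -3.80, -3.04 and -2.50 at the lowest, median and highest line, -4.58, -4.16 and -3.92 in knockout spleens and -4.68, -4.27 and -3.97 in wild-type spleens. The signal was low but above background in each sample, and the lowest line was only slightly above the highest spleen. The lines were higher by 1.10 ± 0.20 (SE, limma adjusted p = 4.95e-05) and 1.20 ± 0.19 (SE, limma adjusted p = 8.44e-06), or 2.14-fold and 2.30-fold. A second probe gave 1.13 ± 0.21 and 1.24 ± 0.20 (SE, limma adjusted p = 5.49e-05 and 9.66e-06). With the normexp background correction the differences fell to 0.63 (limma adjusted p = 3.91e-05) and 0.58 (limma adjusted p = 5.22e-05). Quantile normalization raised them to 1.59 (limma adjusted p = 1.14e-06) and 1.70 (limma adjusted p = 1.95e-07). The arrays of line 8 read -2.05 and -2.95 for Polh, 0.90 apart, whereas the other 5 genes differed by 0.02 to 0.25 between those arrays. Lines 7, 8 and 9 shared a slide without spleens and were among the 4 highest for Polh. Without them the difference was 0.85 (limma adjusted p = 4.92e-04) from knockout and 0.95 (limma adjusted p = 1.03e-04) from wild-type spleens.

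**Figure D2:**
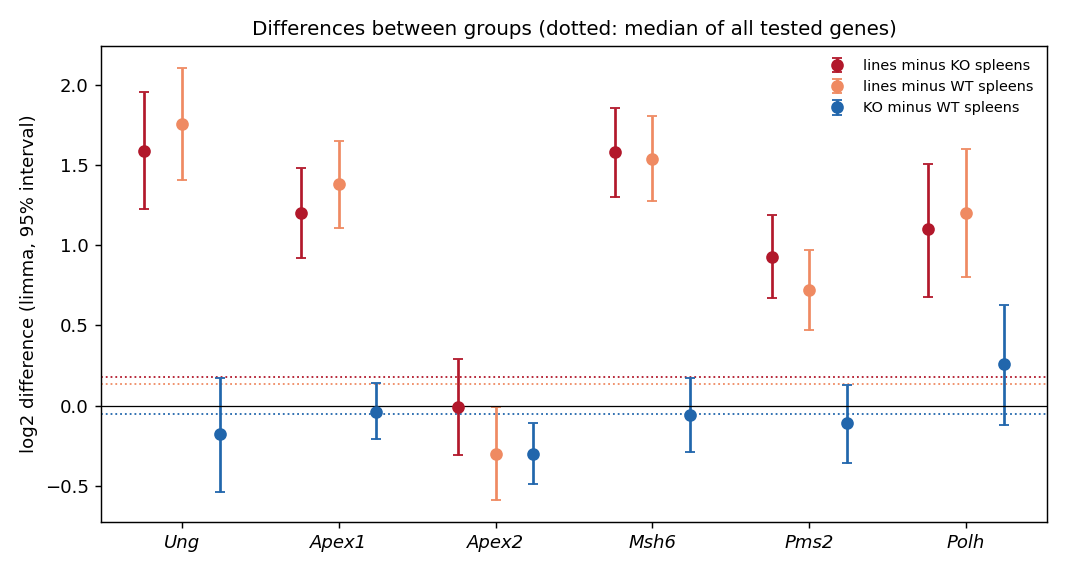
Log2 difference of each gene with its 95% interval for lines against knockout spleens, lines against wild-type spleens and knockout against wild-type spleens; dotted lines mark the median of all tested genes, at 0.178, 0.135 and -0.0544. Ung and Msh6 differ by 1.54 to 1.76 between lines and spleens on this scale, and the intervals of Apex2 and of most genotype differences reach 0 or lie close to it.

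The lines also differed among themselves. Each of the 6 genes spanned 0.97 to 1.30 on the log2 scale over the 9 lines, and no single line was highest or lowest for all of them. Line 9 was highest for Msh6 and Apex2, line 6 for Ung and Pms2, line 8 for Polh and line 2 for Apex1. Line 2 was lowest for Ung and Polh, line 4 for Apex2, line 3 for Msh6, line 5 for Pms2 and line 7 for Apex1. Across the lines the Pearson correlation between the genes ran from -0.57 (Pms2 with Apex1) to 0.83 (Ung with Polh), with a median of 0.40 over 15 pairs. These are descriptions over 9 lines whose values share the scaling of their array and, for some, a slide. In the 13 spleens, pooled over genotype and sex, the same pairs ran from -0.63 to 0.61 with a median of -0.13.

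**Figure D3:**
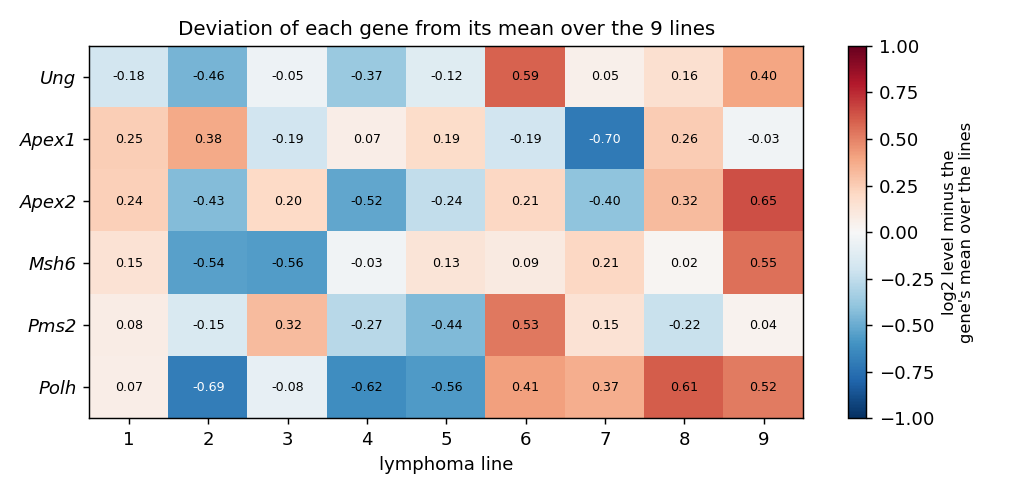
Log2 level of each gene in each lymphoma line minus the gene's mean over the 9 lines, from blue (below) to red (above). Ung and Polh are low in lines 2 and 4 and high in lines 6 and 9, while Apex1 is above its mean in line 2 (0.38) and lowest in line 7 (-0.71).

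The genes whose levels followed each member most closely were found by Pearson correlation among all tested genes, so their r are high by selection. Across the 9 lines Ung was nearest to E130201H02Rik, Haus6 and Smc2 (r = 0.98 for each), the last of these a condensin subunit. Polh was nearest to Lamp3, Ttk, a mitotic checkpoint kinase, and Etaa1, an activator of the kinase Atr (0.99 for each). Apex2 was nearest to Paxip1 (0.99), a class switch factor, Cwf19l1 (0.97) and Psmd7 (0.96). Msh6 was nearest to the chaperone gene Hsp90ab1 (0.96), Ybey (0.94) and Nadk2 (0.93). Pms2 was nearest to Ccz1 (0.94), Enpp1 (0.92) and Nras (0.91), and Apex1 to Ctif (0.96), Inava (0.95) and Vdac2 (0.91). Across the 13 spleens, pooled over genotype and sex, none of these genes recurred among the nearest 3. There Apex1 was nearest to C330007P06Rik and Rb1 (0.95 for each) and Fmr1 (0.93), and Apex2 to Hes5, Ctrl and Zfp553 (0.97 for each). Ung was nearest to Pebp1 (0.94), 5730507C01Rik and Ackr2 (0.90 for each). Msh6 was nearest to Tbccd1 (0.82), Slc15a2 (0.81) and Ogg1 (0.80), the last of these a DNA glycosylase. Pms2 was nearest to Rest (0.85), Ankrd12 and Tasor (0.84 for each), and Polh to Kdelr2 (0.86), Mrpl32 and Yme1l1 (0.85 for each).

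Each gene was then set beside its closest relative within the same sample, in 10 exact two-sided permutation tests of group means over samples. A difference within a sample removes a scaling factor shared by the whole array, but not the effect of quantile normalization. The value is the log2 difference of the probes, so only its change between groups is read. Apex1 minus Apex2 lay between 1.44 and 1.96 in wild-type spleens, between 1.96 and 2.31 in knockout spleens, and between 2.71 and 4.19 over the lines. Every line was above every spleen. The change was 1.21 against knockout (exact p = 4.00e-04, adjusted 0.002) and 1.68 against wild-type spleens (exact p = 8.74e-05, the smallest these permutations can give, adjusted 8.74e-04). With the probes of Apex2 averaged these changes were 0.96 (exact permutation test, adjusted 0.0038) and 1.40 (adjusted 8.74e-04). Among wild-type spleens Apex1 minus Apex2 read 1.44 to 1.64 in males and 1.84 to 1.96 in females, and the tests had no sex term.

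Ung rose more than Smug1, another uracil glycosylase, against wild-type spleens, by 1.40 (exact p = 0.00157, adjusted 0.00392), but the change against knockout spleens was 0.45 (exact p = 0.216, adjusted 0.24). Ung minus Smug1 spanned 1.73 to 4.44 over the lines, 2.54 to 3.58 in knockout and 1.22 to 2.69 in wild-type spleens, so the lines overlapped both. Among wild-type spleens the males read 1.22 to 2.28 and the females 2.23 to 2.69, and these tests had no sex term. Polh rose more than Polk, a related translesion polymerase, against wild-type spleens, by 0.96 (exact p = 8.74e-04, adjusted 0.00291), with 0.43 against knockout spleens (exact p = 0.0979, adjusted 0.15). Msh6 minus Msh3, whose product recognises larger loops, changed by 0.53 (exact p = 0.0513, adjusted 0.103) and 0.36 (exact p = 0.105, adjusted 0.15). Pms2 minus Pms1 changed by -0.05 (exact p = 0.783, adjusted 0.783) and -0.28 (exact p = 0.134, adjusted 0.168).

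**Figure D4:**
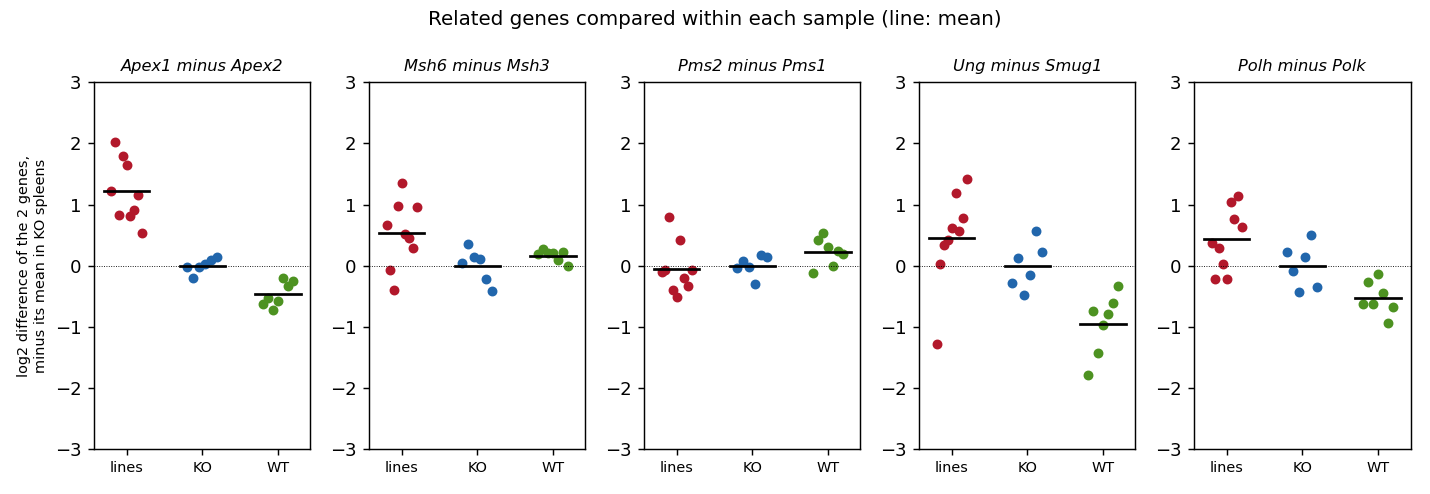
Log2 difference between each gene and its relative within every sample, minus the mean of that difference in knockout spleens; bars mark group means. The lines stand clear of all spleens only for Apex1 minus Apex2, and Ung minus Smug1 and Polh minus Polk are lowest in wild-type spleens.

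Other mismatch repair genes were higher in the lines as well. Of 4 reported here, 3 rose and 0 fell against either group of spleens, and 4 rose with quantile normalization or median centring, with a median log2 difference of 1.02 from knockout spleens beside 0.178 for all genes. Exo1, the gap-opening nuclease, rose by 1.73 ± 0.31 (SE, limma adjusted p = 4.20e-05), Msh3 by 1.05 ± 0.14 and Pms1 by 0.99 ± 0.099. Mlh3 differed by 0.31 (limma adjusted p = 0.0863), and passed the test with quantile normalization, at 0.45 (limma adjusted p = 0.0152), and with median centring, at 0.97 (limma adjusted p = 1.74e-04).

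The other DNA glycosylases, which remove damaged or deaminated bases, were also higher in the lines. Against knockout spleens 9 of 9 tested rose, with a median of 1.10, and 8 of 9 rose against wild-type spleens. Neil3 rose by 2.13 ± 0.26, Tdg by 1.54 ± 0.14 and Mbd4 by 1.15 ± 0.14 (SE, limma adjusted p = 2.68e-07, 4.83e-09 and 2.23e-07). Smug1 rose by 1.14 ± 0.22 against knockout spleens (SE, limma adjusted p = 8.10e-05) and differed by 0.36 from wild-type spleens (limma adjusted p = 0.129), or by 1.0 with median centring (limma adjusted p = 3.12e-04), where 9 of 9 rose. Of 8 genes of the later base excision steps 7 rose and 0 fell, with a median of 0.61 (6 with quantile normalization, 8 with median centring). Hmces, which shields abasic sites, rose by 2.40 ± 0.14, Xrcc1, the repair scaffold, by 2.32 ± 0.13 and Lig3 by 0.74 ± 0.16 (SE, limma adjusted p = 1.71e-12, 1.45e-12 and 3.24e-04).

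Translesion synthesis, the pathway of Polh, moved in both directions. Of 14 other genes tested 9 rose and 3 fell, with a median of 0.63 (8 and 1 with quantile normalization, 13 and 0 with median centring). Usp1, which removes ubiquitin from PCNA, rose by 1.59 ± 0.13, Rad18, which attaches it, by 1.45 ± 0.14 and Poli, another translesion polymerase, by 1.37 ± 0.23 (SE, limma adjusted p = 4.89e-10, 5.53e-09 and 1.88e-05). Polk rose by 0.67 ± 0.095 (SE, limma adjusted p = 2.06e-06). The genes that fell were Shprh (-0.46), Primpol (-0.33) and Hltf (-0.30), with limma adjusted p of 0.00904, 0.0401 and 0.0313, and with median centring they read 0.19, 0.33 and 0.35. Of the genes that refill a repair patch, 16 of 16 tested rose, with a median of 1.17, and 14 of 16 with quantile normalization. Pole2 rose by 2.88 ± 0.23, Rfc3 by 2.28 ± 0.21 and Pole by 1.84 ± 0.20 (SE, limma adjusted p = 3.42e-10, 3.34e-09 and 4.13e-08).

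Of 17 other genes of class switching, 12 rose and 1 fell against knockout spleens, with a median of 0.64 (9 and 1 with quantile normalization, 16 and 0 with median centring). The end-joining ligase gene Lig4 rose by 1.83 ± 0.19, Paxip1 by 1.35 ± 0.12 and Xrcc4, the partner of Lig4, by 1.04 ± 0.12 (SE, limma adjusted p = 2.15e-08, 3.27e-09 and 1.13e-07). Dclre1c, the end-processing nuclease Artemis, fell by 0.57 ± 0.13 against knockout spleens (SE, limma adjusted p = 4.05e-04), and read 0.09 with median centring (limma adjusted p = 0.571). Against wild-type spleens it rose by 0.37 ± 0.12 (SE, limma adjusted p = 0.00907), and it was 0.23 with quantile normalization (limma adjusted p = 0.084).

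Markers of dividing cells differed between lines and spleens as well. Of 22 tested proliferation genes 21 rose in the lines, with a median of 1.83 against knockout and 2.63 against wild-type spleens. The mean log2 level of that list was at least 3.22 and at most 4.73 in a line, against 1.76 to 2.59 in knockout and 1.16 to 2.34 in wild-type spleens, with no overlap between lines and spleens. Across the 9 lines that mean had a Pearson correlation of 0.88 with Apex2, 0.76 with Polh, 0.69 with Ung, 0.57 with Msh6, 0.17 with Pms2 and -0.09 with Apex1. In the 13 spleens these were -0.68 with Apex2, 0.18 with Polh, 0.32 with Ung, -0.05 with Msh6, -0.39 with Pms2 and 0.29 with Apex1. The 13 spleens pool both genotypes and both sexes, and Apex2 was lower in every knockout than in every wild-type spleen. How far genotype and sex enter these correlations was not tested. The part of division, and of cell types whose markers were lower in the lines, in the differences of the 6 genes and of the repair lists was not tested.

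**Figure D5:**
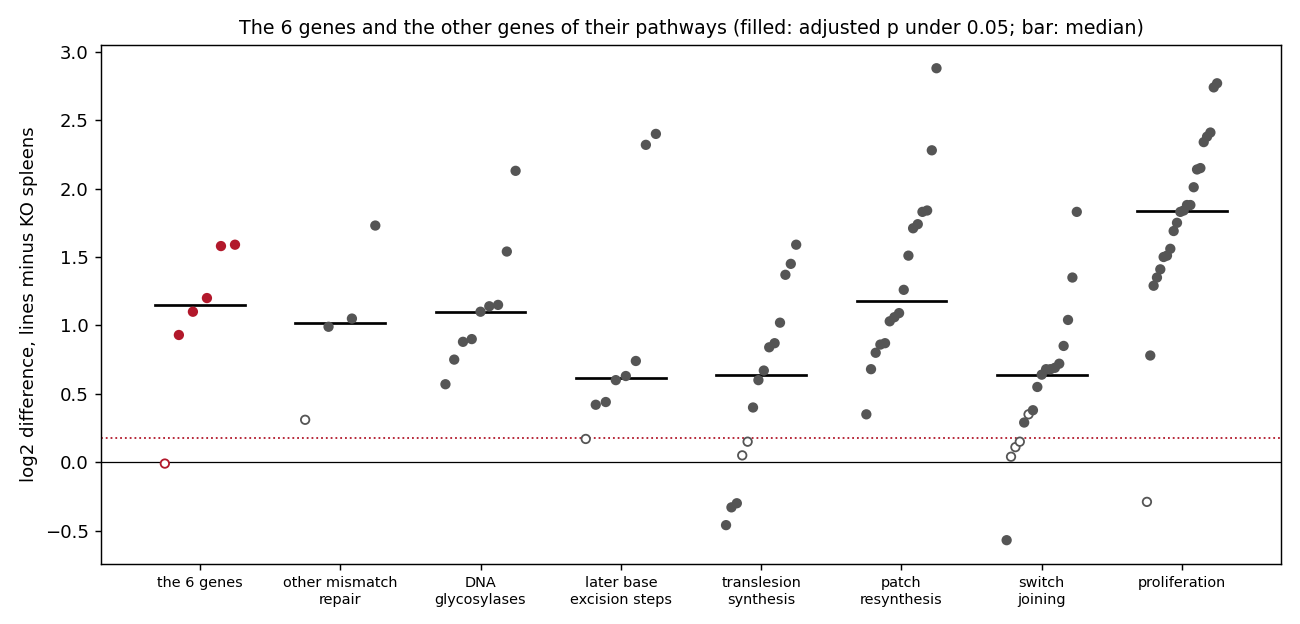
Log2 difference between lines and knockout spleens for the 6 genes (red) and for the genes of 7 lists (grey), with filled points at a limma adjusted p under 0.05, bars at list medians and the dotted line at the median of all genes, 0.178. The 6 genes have a median of 1.15 and the proliferation list 1.83.

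Knockout and wild-type spleens were compared with sex as a term, which addresses the loss of Atm without a tumour. Of the 6 genes 0 passed the test, where 3.8% of all genes did, 1.64% higher and 2.16% lower (226 and 297 genes, 176 and 176 with median centring). Apex2 had the lowest limma adjusted p of the 6. Its level was 0.12 to 0.42 in the 6 knockout and 0.47 to 0.70 in the 7 wild-type spleens, so every knockout spleen was lower, as for 2.09% of all genes. The difference was -0.30 ± 0.088 (SE, limma adjusted p = 0.0794) with a 95% interval of -0.49 to -0.11, and -0.30 (limma adjusted p = 0.132) among females alone. Without the sex term it passed the test, at -0.29 (limma adjusted p = 0.0171). The dimmer probe gave -0.23 ± 0.15 (SE, limma adjusted p = 0.432).

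For the other 5 genes the genotype difference lay between -0.18 and 0.26, with limma adjusted p from 0.423 to 0.837. The 95% intervals were -0.54 to 0.17 for Ung, -0.21 to 0.14 for Apex1, -0.29 to 0.17 for Msh6, -0.36 to 0.13 for Pms2 and -0.12 to 0.63 for Polh. Smug1, the relative of Ung, was lower in knockout spleens by -0.76 (limma adjusted p = 0.0149). Of the repair lists, Smug1 was the only gene to fall, and Dclre1c (0.88, limma adjusted p = 0.00919) and Pcna (0.45, limma adjusted p = 0.0488) were the only ones to rise. NK cell markers were also lower in knockout spleens, 5 of 9 past the test with a median of -0.76. The mean of that list was 1.26 to 1.94 in knockout and 1.82 to 2.31 in wild-type spleens. The proliferation list had a median difference of 0.61, with 0 of 22 genes past the test. The medians of the neutrophil, erythroid and stromal lists were 0.95, 1.01 and -0.52, also with 0 genes past the test. The part of these lists in the Apex2 and Smug1 values was not tested.

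Male spleens were all wild-type, and the same fit gave the difference between sexes. Again 0 of the 6 passed the test, where 0.683% of all genes did (0.0509% higher and 0.632% lower in males). The lowest limma adjusted p were those of Apex1 and Ung. Apex1 was 2.06 to 2.21 in the 4 males, 2.49 to 2.61 in the 3 wild-type females and 2.38 to 2.62 in the knockout females. Every male was below every female of either genotype, as for 2.14% of all genes. The fitted difference, which is that between wild-type males and wild-type females, was -0.38 ± 0.088 (SE, limma adjusted p = 0.0808). Ung was 0.49 to 1.03 in males and 1.38 to 1.54 in wild-type females, with no overlap between these, but 0.89 to 1.54 in knockout females. Its difference was -0.62 ± 0.18 (SE, limma adjusted p = 0.175). Apex2 differed by -0.03 between the sexes, with an interval of -0.23 to 0.18 (limma adjusted p = 0.961).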

How the data were processed

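Each array is a deposited table of spot intensity, already background-subtracted by the scanner software (Feature Extraction 10.7.1.1, per the file headers). The deposited value table holds log2 values of the same arrays, each probe centred on a median of 0, and served as an alternative. Control spots (1639 per array) and outlier spots (1556 over all arrays) were left out, spots of a probe averaged, and log2 values expressed relative to the 75th percentile of their array. RefSeq accessions of the probes were joined to a RefSeq gene table (GRCm38.p6), which named 26690 of 41174 probes. The brightest probe stood for a gene, and testing required signal well above background in 6 or more samples. Groups came from the labels, which number the samples separately and say no more of how they relate to each other. The p-values judge group differences against the spread between these samples.

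All 13765 genes entered limma 3.58.1 (lmFit and eBayes, R 4.3.3), with Benjamini-Hochberg adjustment over all of them and a threshold of 0.05. Lines were compared in a fit of the 3 groups, and spleens in a fit with genotype and sex. Related genes were compared within samples by exact permutation, adjusted over 10 tests. Fits and permutations were tested on simulated data. The members and lists were chosen with earlier results of these data known. Genes named are the 6 genes and their probes, their relatives, Exo1, up to 3 called genes per direction of each repair list with the largest difference from knockout spleens, and for each member the 3 nearest genes by correlation. Some genes of the pathway lists are not reported here and were left out of the list counts and medians. Atm, Mlh3, Pcna and the wild-type value of Dclre1c were named after their values were seen. Alternatives were other scalings and backgrounds, the value table, no filter, averaged probes, slide terms and values, and each sample left out. The number of arrays limits the precision.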

Additional observations from a re-analysis of the deposited data

How the results depend on the processing

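The rises of Ung, Apex1, Msh6, Pms2 and Polh in the lines kept their direction and passed the test under every alternative fit run, with ranges against knockout spleens of 1.34 to 2.25, 0.87 to 1.86, 1.15 to 2.23, 0.79 to 1.59 and 0.63 to 1.75. Within slides, with no test, values that moved beyond their spread against knockout spleens were 0.92 (Msh6), 1.61 (Apex1) and -0.52 (Apex2) on slide 2, 0.84 (Msh6) and 1.33 (Pms2) on slide 3, 1.06 (Ung), 1.93 (Msh6), 0.47 (Pms2) and -0.37 (Apex2) on slide 4 and 1.34 (Pms2) on slide 5. Against wild-type spleens they were 1.07 (Msh6), 1.88 (Apex1) and 0.54 (Polh) on slide 2, 0.97 (Msh6) on slide 3, 1.19 (Ung), 0.44 (Pms2) and -0.72 (Apex2) on slide 4 and 2.44 (Ung) and 1.14 (Pms2) on slide 5. Apex2 against knockout spleens reversed with median centring (0.65) and averaged probes (0.24). Apex2 against wild-type spleens, short of the threshold in the main setting, passed it with quantile normalization (-0.40), normexp (-0.29), the value table (-0.32) and without lines 7, 8 and 9 (-0.39), in each of which 1 of the 6 genes then fell. Leaving out each sample gave -0.38 to -0.23, past the threshold without line 1, 8 or 9 (0 to 1 genes lower). The genotype difference of Apex2 passed only without the sex term (-0.29, 1 gene lower). Polh minus Polk against knockout spleens passed with quantile normalization (0.74). With each sample left out, Ung minus Smug1 against knockout spleens ranged from 0.33 to 0.67, passing without line 1. Without line 3, Msh6 minus Msh3 passed against knockout (range 0.42 to 0.64) and wild-type spleens (0.26 to 0.48), as did Pms2 minus Pms1 against wild-type spleens (-0.38 to -0.22). The cause of these changes was not tested. Counts over all genes between genotypes were 226 higher and 297 lower, 146 and 110 with a slide term, 733 and 715 without the sex term, and 163 and 178 in females alone. Leaving out each spleen gave 74 to 352 higher and 48 to 428 lower, moving a count by over 1.5 times without knockout spleen 1 or 6 or wild-type spleen 5, 6 or 7. Between sexes 7 genes were higher and 87 lower in males, 3 and 6 with a slide term, and 3 to 13 and 11 to 116 with each spleen left out, lowest without wild-type spleen 6.

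The normexp alternative was chosen in its present form after seeing the data: the files hold median spot signals, and spots with a local background far above their signal took the median background of the array. Single samples were not paired across groups, because the labels give the groups no shared replicate numbers. Slides 1 to 5 held all 3 groups, and a fit with the slide as a fixed term changed no call on the 6 genes. Of 18 group checks for a sample far from the others, 0 met the criterion. The low signal of Polh limits its fold, which differs by background correction.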
